A study of Mus musculus with 4 samples.

Results

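Neutrophil marker genes were followed in endothelial cells (ECs) isolated from the mouse lung with magnetic beads against CD31, after unilateral pneumonectomy (PNX) or a sham operation. The markers were chosen by name, as the 10 genes S100a8, S100a9, Retnlg, Csf3r, Ngp, Ltf, Camp, Elane, Mpo and Il1b, and all 10 were found among the 24063 gene symbols of the tables. The sham group held 2 libraries from C57BL6 mice (C57BL6J in the study's methods) after sham thoracotomy, and the PNX group held 2 libraries from mice of this strain 7 days after removal of the left lung. All mice were labelled as 8 weeks old and male, no transgene was named, and each library pooled the cells of 2 mice. The study's methods give the analgesic meloxicam in their account of the surgery. Since RNA of a whole cell fraction was measured, fewer cells of a type and less RNA per cell cannot be told apart.

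Neutrophils are short-lived granulocytes that mature in the bone marrow and fill their granules in order. Azurophil granules, which carry myeloperoxidase and elastase, form first in promyelocytes, specific granules with lactoferrin and cathelicidin form next, and the transcripts of granule proteins decline as the cells mature and enter the blood. The lung capillaries hold a marginated pool of neutrophils, which carry some CD31 on their surface. The products of S100a8, S100a9 and Il1b are also made by monocytes and macrophages, so these genes mark neutrophils less strictly than the granule genes.

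The tables were made by the authors as read counts per RefSeq transcript of mm10, and of each gene symbol the transcript with most counts was used. Counts on these transcripts came to between 41367438 and 50952879 per library. A floor was set at 3 counts, which at these depths lay between 0.0589 and 0.0725 CPM, the count scaled by library size (counting error only). Pecam1, the gene of CD31, had between 90191 and 91116 normalized counts per library. Ptprc, the gene of the leukocyte antigen CD45, had between 11422 and 11665, although the study's methods describe the isolated cells as CD45-. The 44 chromosome Y genes listed were at 0 counts throughout and Xist had between 29890 and 36875 counts, which goes against the label male for all 4 libraries. The libraries of a group differed little beyond counting noise, with a mean chi-square per gene of 1.76 in sham and 1.53 after PNX (counting noise alone gives about 1), so p-values measure the spread between these few libraries only.

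The 10 markers fell into 3 patterns after PNX, all of them smaller than a 2-fold change. Transcripts of calprotectin (S100a8, S100a9), the resistin-like Retnlg, the granulocyte colony-stimulating factor (G-CSF) receptor Csf3r and the cytokine Il1b rose by between 11.1% and 41.3%. Those of the specific granule proteins Ngp, Ltf and Camp fell by between 20.5% and 32.1%. The azurophil granule genes Elane and Mpo did not pass the test. Here a gene is said to rise or fall when its adjusted p was under 0.01 by edgeR (quasi-likelihood test, Benjamini-Hochberg over the 16208 genes tested), whatever the size of the change, and all 10 markers were among these genes. Thus 5 of the markers were higher and 3 lower, while 29.3% of all genes tested were higher and 27.8% lower by the same rule (57.1% together). At an unadjusted p under 0.05 the number of markers was 8, against 68.2% of all genes. With the further demand of a log2 fold change beyond 1, none of the 10 markers was called by edgeR or by DESeq2, while 5.9% of the genes tested were higher and 1.66% lower in edgeR's test (7.56% together). The 95% confidence interval of the log2 fold change lay within -1 and 1 for all 10 markers. Their median log2 fold change was 0.15, and that of all genes tested was 0.00.

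**Figure D1:**
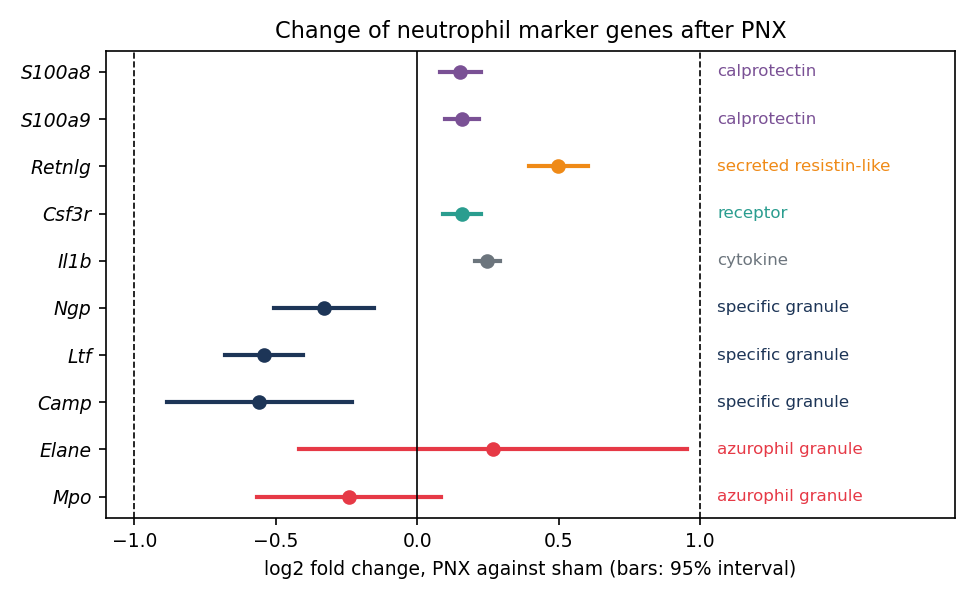
Log2 fold change of each neutrophil marker gene, PNX against sham, on the horizontal axis, with points for the estimate, bars for its 95% interval and dashed lines at -1 and 1, coloured by the role of the product. The 5 genes in the upper rows lie above 0, the specific granule genes lie below 0, the intervals of Elane and Mpo cross 0, and no interval reaches -1 or 1.

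Promoter sequences are shown for the specific granule markers Ngp, Ltf and Camp, which all fell, and for S100a8 as a marker that rose. Camp, Ngp and Ltf lie on chromosome 9 in this order, with 570.4 kb between Camp and Ngp and 596.3 kb between Ngp and Ltf. S100a8 lies on chromosome 3 from 90669071 to 90670034 and S100a9 from 90692630 to 90695721, with 22.6 kb between them. The windows printed end at the last base before the RefSeq transcription start in GRCm38.p6 (mm10), at chr9:110419658-110419807 on the plus strand for Ngp, chr9:111019142-111019291 on the plus strand for Ltf, chr9:109849457-109849606 on the minus strand for Camp and chr3:90668891-90669070 on the plus strand for S100a8. Each is printed from 5′ to 3′ along its gene, and capitals mark matches, on either strand, to the motif TTGCNNAA of C/EBP factors or to GAGGAA of PU.1. Both are factors of myeloid cells.
Ngp: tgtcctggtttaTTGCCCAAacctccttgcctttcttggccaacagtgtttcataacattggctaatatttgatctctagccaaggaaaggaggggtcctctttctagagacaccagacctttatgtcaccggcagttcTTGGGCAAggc
Ltf: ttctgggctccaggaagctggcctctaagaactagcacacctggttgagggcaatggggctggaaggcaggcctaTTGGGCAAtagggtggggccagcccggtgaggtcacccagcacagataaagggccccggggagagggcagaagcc
Camp: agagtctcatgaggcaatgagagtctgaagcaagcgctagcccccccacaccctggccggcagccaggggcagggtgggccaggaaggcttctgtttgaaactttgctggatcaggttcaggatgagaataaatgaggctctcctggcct
S100a8: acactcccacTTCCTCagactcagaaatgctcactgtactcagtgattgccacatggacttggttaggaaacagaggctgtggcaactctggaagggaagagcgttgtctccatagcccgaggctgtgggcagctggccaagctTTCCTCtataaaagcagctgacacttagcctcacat
The C/EBP match of Ngp begins 138 bases before the start and is repeated on the other strand from base 11, and Ltf holds the same letters on the other strand from base 75. Over the 250 bases before the start, the C/EBP motif was found in 4 of the 10 markers (S100a9, Retnlg, Ngp and Ltf) and in 9.56% of the 32851 promoters of the RefSeq table. The PU.1 motif was found in 5 (S100a8, Csf3r, Ltf, Elane and Mpo) and in 23.3% of the promoters. In Camp neither motif occurred in this window. The motifs do not overlap each other in these windows, and a match is a description of letters only.

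Compared per length, the levels of the markers had the same order in all 4 libraries. On the deposited TPM scale (counts per length, scaled over all transcripts of a library), Il1b was highest with a mean of 249.6 TPM in sham and 289.7 TPM after PNX, followed by S100a9 (230.2 and 250.5 TPM), S100a8 (195 and 211 TPM), Retnlg (48.6 and 67.1 TPM) and Csf3r (21.8 and 23.8 TPM). The granule genes came last, with Ngp at 10.7 and 8.32 TPM, Ltf at 8.31 and 5.58 TPM, Camp at 6.30 and 4.20 TPM, Mpo at 1.32 and 1.09 TPM and Elane at 0.666 and 0.780 TPM. Within each group the libraries of neighbours in this order did not overlap. Il1b ranked 367 and Elane 14806 among the 19626 symbols with any count. Together the markers took between 0.0427% and 0.0494% of a library's counts on the transcripts used, those with most counts of each symbol.

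**Figure D2:**
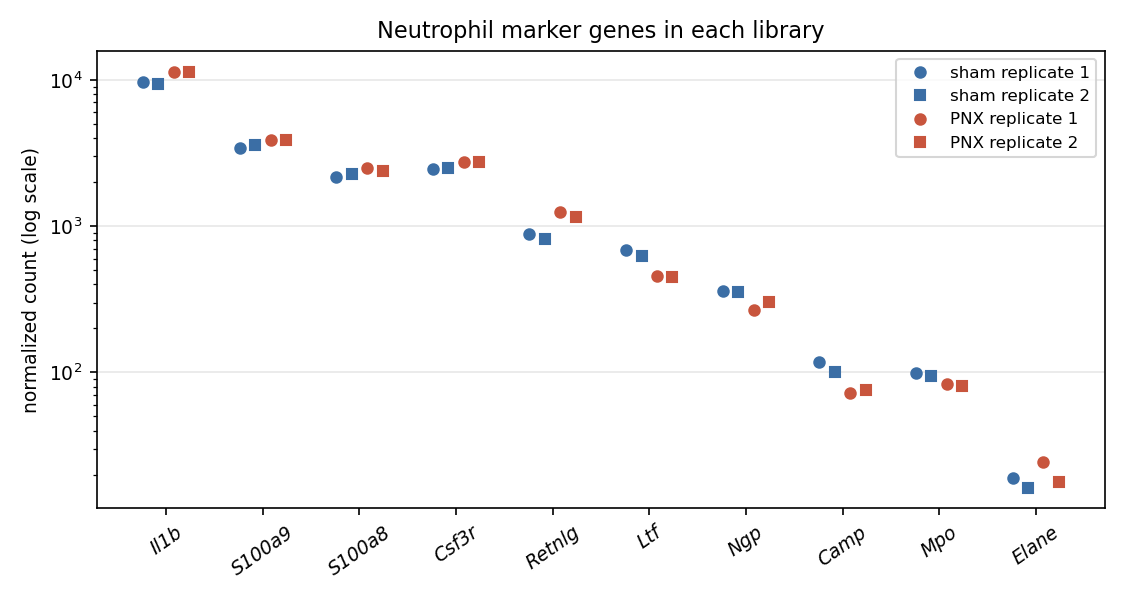
Normalized count of each neutrophil marker gene in each library (vertical axis, log scale), with sham libraries in blue, PNX libraries in red, circles for replicate 1 and squares for replicate 2. The groups are apart in every gene but Elane, and the distance between groups is small beside the distance between genes.

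S100a8 and S100a9 encode the subunits of calprotectin, the most abundant protein of the neutrophil cytosol and an alarmin that is sensed by TLR4. S100a8 had 2155 and 2255 normalized counts in sham and 2509 and 2382 after PNX. S100a9 had 3395 and 3562 in sham and 3884 and 3866 after PNX. Both genes were higher in each PNX library than in each sham library. The log2 fold change was 0.15 for S100a8 (SE 0.036, edgeR, adjusted p = 0.000196) and 0.16 for S100a9 (SE 0.030, edgeR, adjusted p = 6.3e-06). There were between 1.55 and 1.62 normalized counts of S100a9 for each count of S100a8 in the 4 libraries. The rise of S100a8 was the less certain, since its adjusted p was 0.0146 without sham replicate 1, 0.0264 without PNX replicate 1 and 0.0182 in DESeq2's Wald test.

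Retnlg, on chromosome 16 from 48872608 to 48874498, encodes a secreted resistin-like protein that is typical of mature mouse neutrophils. It had 889.6 and 814 normalized counts in sham and 1254 and 1154 after PNX. The groups did not overlap, and the log2 fold change of 0.50 (SE 0.053, edgeR, adjusted p = 1.0e-12) was the largest rise among the 10 markers. Csf3r, on chromosome 4 from 126023441 to 126044975, encodes the receptor through which G-CSF drives the formation and release of neutrophils. Its normalized counts were 2441 and 2481 in sham and 2757 and 2733 after PNX. The difference was larger than the spread within either group, with a change of 0.16 ± 0.033 (SE) on the log2 scale (edgeR, adjusted p = 3.4e-05). The transcripts of Csf3r in the tables, 3 in number, had nearly the same counts, such as 2573, 2694 and 2651 in sham replicate 1, and 11.2% of the stretches of 50 bases in its longest transcript also occur in other genes, so some of its reads could be theirs. For 100 normalized counts of Csf3r there were 36.5 and 32.8 of Retnlg in sham and 45.5 and 42.2 after PNX, so both PNX values were above both sham values. The exact permutation test over the 4 libraries, two-sided, gave p = 0.333, the smallest p that 2 against 2 libraries allow, so it cannot decide. Both genes rose and Retnlg rose more, so this ratio restates their changes.

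Il1b, on chromosome 2 from 129364569 to 129371164, encodes the inflammatory cytokine interleukin-1 beta and had the most counts of the markers. Its normalized counts were 9719.6 and 9388 in sham and 11392 and 11308 after PNX. Both PNX libraries were higher, and the log2 fold change was 0.25 (SE 0.022, edgeR, adjusted p = 1.4e-15), a rise of 18.8%.

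The specific granule genes among the markers, Ngp, Ltf and Camp, moved the other way. Ltf, on chromosome 9 from 111019292 to 111042766, encodes lactoferrin, an iron-binding protein of the specific granules. It fell from 688 and 626 normalized counts in sham to 454 and 450.1 after PNX, which is -0.54 ± 0.069 (SE) on the log2 scale (edgeR, adjusted p = 3.6e-10). Camp, on chromosome 9 from 109847377 to 109849456, encodes the antimicrobial peptide cathelicidin and had 118 and 99.9 normalized counts in sham against 72.7 and 75.8 after PNX. Its log2 fold change was -0.56 (SE 0.16, edgeR, adjusted p = 0.00222). Ngp, on chromosome 9 from 110419808 to 110423012, encodes neutrophilic granule protein, which shares the cathelin-like fold, and had 362 and 352 normalized counts in sham against 268 and 302 after PNX. Its log2 fold change was -0.33 (SE 0.088, edgeR, adjusted p = 0.000879). In all 3 genes both PNX libraries lay below both sham libraries.

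The fall of Ltf stayed under an adjusted p of 0.01 in every alternative tried, and those of Ngp and Camp did not. In DESeq2's Wald test the adjusted p was 0.0405 for Ngp and 0.0651 for Camp. Without sham replicate 1 it was 0.0107 for Ngp and 0.0569 for Camp in edgeR's test, without PNX replicate 1 it was 0.0527 and 0.0274, and without PNX replicate 2 that of Camp was 0.0105. The number of markers that fell was thus 1 without sham replicate 1, 1 without PNX replicate 1 and 2 without PNX replicate 2.

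Set against calprotectin in the same library, the transcripts of the specific granule markers Ngp, Ltf and Camp were lower after PNX. This does not hold for such genes as a class. Of 8 further genes of specific and gelatinase granules, described below and not in this sum, 3 rose, among them Lcn2, 1 fell and 4 did not pass. Summed over Ngp, Ltf and Camp there were 21.1 and 18.5 normalized counts for each 100 of S100a8 and S100a9 in sham, and 12.4 and 13.2 after PNX. The mean was 19.8 ± 1.79 (SD, n = 2) in sham and 12.8 ± 0.576 (SD, n = 2) after PNX, and the groups did not overlap (exact permutation test over the libraries, two-sided, p = 0.333, the smallest possible). That test cannot decide with so few libraries. Each gene of the sum was lower and both calprotectin genes were higher in each PNX library, so the ratio restates those changes and is no separate support. A ratio of genes within a library does not depend on the scaling of the libraries. In the 4 libraries Ltf made up between 54.4% and 58.9% of the sum, Ngp between 31.0% and 36.5% and Camp between 9.15% and 10.1%.

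**Figure D3:**
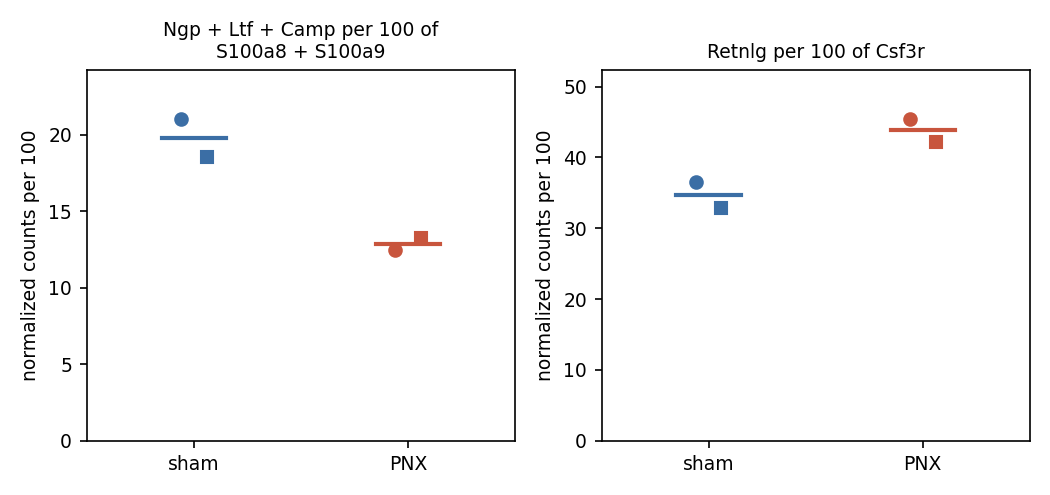
Normalized counts of Ngp, Ltf and Camp per 100 of the calprotectin genes (left) and of Retnlg per 100 of Csf3r (right) in each library, with circles for replicate 1, squares for replicate 2 and lines for the group mean. The left values are 21.1 and 18.5 in sham against 12.4 and 13.2 after PNX, and the right values are 36.5 and 32.8 against 45.5 and 42.2.

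The azurophil granule genes had the lowest levels per length among the 10 markers. Mpo, on chromosome 11 from 87793784 to 87804412, encodes myeloperoxidase and had 99.7 and 93.8 normalized counts in sham and 83.5 and 80.2 after PNX. The groups did not overlap, but the log2 fold change of -0.24 (SE 0.16, edgeR, adjusted p = 0.189) did not pass, and its 95% interval ran from -0.57 to 0.08. Elane, on chromosome 10 from 79886312 to 79888216, encodes neutrophil elastase and had 21, 16, 25 and 16 counts in sham replicate 1, sham replicate 2, PNX replicate 1 and PNX replicate 2. These values overlapped, with a change of 0.27 ± 0.34 (SE) on the log2 scale (edgeR, adjusted p = 0.502) and an interval from -0.42 to 0.95, so its direction was not detectable at this depth. Without overlap between the groups, 5 markers were higher and 4 lower after PNX, while 40.8% of all genes tested were higher and 40.5% lower without overlap (81.2% together).

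Within the groups the libraries differed little in the markers. The ratio of replicate 2 to replicate 1 lay between 0.848 for Camp and 1.05 for S100a9 in sham, and between 0.726 for Elane and 1.13 for Ngp after PNX. Its exact 95% interval (Clopper-Pearson, from the counts of both libraries, counting error only) left out 1 for 2 of the 10 markers in sham, namely S100a9 (1.00 to 1.10) and Il1b (0.939 to 0.993), and for none after PNX. The share over all genes tested was 10.9% in sham and 8.8% after PNX. The widest interval was that of Elane in sham, from 0.418 to 1.72, with 21 and 16 counts behind it. These ratios compare libraries and not conditions.

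Other genes of neutrophils were taken from 3 lists with 40 symbols, of which 33 were tested. Of these, 13 rose and 7 fell, and with a log2 fold change beyond 1 in size 8 were higher and none lower in edgeR's test (of the 33, 13 did not pass). Of all genes tested, 29.3% rose and 27.8% fell (57.1% together), and 5.9% were higher and 1.66% lower past the fold threshold. These shares also stand beside the counts of every list below. Among the 8 was Cebpe, which passed the filter on low counts through its PNX libraries alone. With a mean of at least 50 counts as the filter, 7 were higher and none lower. DESeq2's Wald test called 7 higher and none lower. Their median log2 fold change was 0.10, against 0.15 for the markers.

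Among the genes of azurophil granules and of progenitors, 2 were higher past the fold threshold. Prtn3, which encodes proteinase 3 of the azurophil granules, had 42.6 and 30.6 normalized counts in sham and 142 and 140.4 after PNX, a log2 fold change of 1.93 (edgeR, adjusted p = 1.5e-14). It lies 3.1 kb from Elane on chromosome 10, which did not pass. Cebpe, the factor of specific granule gene expression, had 9.1 and 6.1 normalized counts in sham and 17.7 and 34.5 after PNX (log2 fold change 1.72), few counts with a wide spread. It passed the filter on low counts through its PNX libraries alone, so its rise is no separate support. Serpinb1a, an inhibitor of neutrophil serine proteases with the most counts of this list, rose from 2382 and 2386 to 3944 and 3932 (log2 fold change 0.72). Gfi1, a repressor needed for granulocyte formation, was the gene that fell, from 81.5 and 71.4 to 43.2 and 45.7 (log2 fold change -0.79).

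Among 8 further genes of specific and gelatinase granules, 3 rose, 1 fell and 4 did not pass. Chil3, the chitinase-like protein Ym1 that alveolar macrophages also make in quantity, rose from 66525 and 66208 normalized counts to 190320.0 and 185561 (2.83-fold). Mmp8, neutrophil collagenase, rose from 468 and 475 to 1021 and 1125 (log2 fold change 1.18). Lcn2, the siderophore-binding protein of specific granules, rose by 0.18 on the log2 scale, and Itgb2l was the gene that fell, with 28.1 and 47.9 normalized counts in sham and 15.7 and 23.4 after PNX (log2 fold change -0.95, edgeR, adjusted p = 0.00534).

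Of 25 genes of mature neutrophils 19 were tested, of which 7 rose, 5 fell and 7 did not pass. Past the fold threshold were Padi4, the peptidylarginine deiminase of neutrophil extracellular traps, with 251 and 275 normalized counts in sham and 1413 and 1364 after PNX (log2 fold change 2.40, edgeR, adjusted p = 1.2e-40), Wfdc21 (log2 fold change 1.38) and the C-type lectin receptors Clec4d (1.14) and Clec4e (1.01). Among the genes that fell were Il1r2 (log2 fold change -0.42), the decoy receptor of IL-1, Cxcr2 (-0.22), the chemokine receptor of neutrophil recruitment, Hdc (-0.15) and Fpr1 (-0.13). Cxcr2 had 554 and 592 normalized counts in sham and 534 and 447 after PNX. Ly6g was not analysed here.

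**Figure D4:**
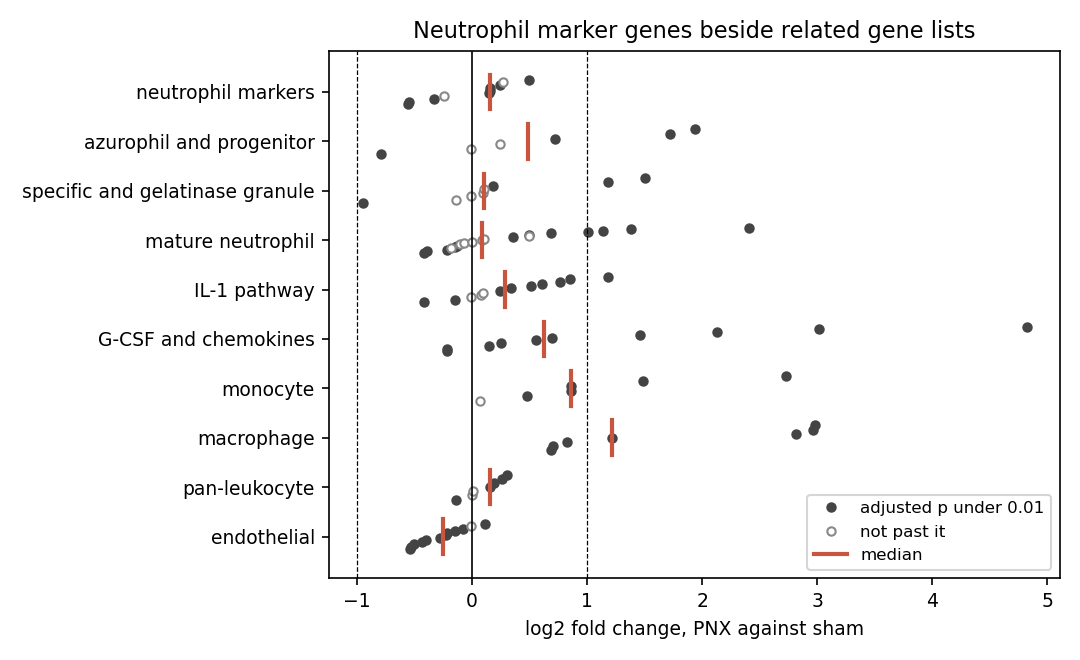
Log2 fold change, PNX against sham, of the tested genes of each list, 1 point per gene, filled where the adjusted p was under 0.01, with a red line at the list's median and dashed lines at -1 and 1. The neutrophil markers stay within -0.56 and 0.50, while macrophage genes lie between 0.69 and 2.98 and Cxcl5 reaches 4.82.

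Of 11 genes of ligands, growth factors and receptors in neutrophil recruitment 10 were tested, of which 8 rose and 2 fell, with a median log2 fold change of 0.62. Cxcl1, a ligand of CXCR2, had 305 and 292 normalized counts in sham and 2397 and 2433 after PNX, a log2 fold change of 3.01 (edgeR, adjusted p = 6.1e-50). Cxcl5, another ligand, had 3 and 5 counts in sham and 115 and 99 after PNX (log2 fold change 4.82), and Cxcl3 rose by 1.46 and Cxcl2 by 0.69 on the log2 scale. Csf3, which encodes G-CSF, had 2 and 6 counts in sham and 15 and 18 after PNX (log2 fold change 2.13). Csf3 and Cxcl5 passed the filter on low counts through their PNX libraries alone. At such low sham counts a gene was tested only if it was higher after PNX, so these rises are no separate support. Both genes are among the 8 that rose. Cxcl12 (log2 fold change -0.22), the chemokine with the most counts of this list, and its receptor Cxcr4 (-0.22) fell.

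In the IL-1 pathway, 7 of 12 genes rose, 2 fell and 3 did not pass. Il1a, the other agonist, rose from 1055 and 1100 normalized counts to 1655 and 1632 (log2 fold change 0.61), and the receptor antagonist Il1rn rose by 0.51 on the log2 scale. Il1r1, the signalling receptor, rose by 0.76. Pycard, the inflammasome adaptor ASC, was the gene past the fold threshold, with 382 and 399 normalized counts in sham and 904 and 859 after PNX (log2 fold change 1.18, edgeR, adjusted p = 2.1e-24). The genes that fell were the sensor Nlrp3, by 0.14 on the log2 scale, and the decoy receptor Il1r2 named above. Gsdmd, with the most counts of this list, did not pass (log2 fold change -0.00, edgeR, adjusted p = 0.923).

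Among 7 genes of reported receptors or co-receptors of calprotectin, 3 rose and 2 fell. Cd14, a co-receptor of TLR4 on monocytes and macrophages, rose from 2828 and 2832 normalized counts to 6541 and 6184 (log2 fold change 1.17). Tlr4 itself did not pass, at -0.05 on the log2 scale (edgeR, adjusted p = 0.216). Cd36, with the most counts of this list, fell by 0.59 on the log2 scale.

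Markers of other cells that share transcripts with neutrophils moved in the same libraries. Monocyte genes (6 tested) rose in 5 cases, with a median log2 fold change of 0.86, and their summed normalized counts were between 8248 and 8370 in sham and between 16293 and 16502 after PNX. All 7 macrophage genes rose, with a median of 1.22 and sums between 22004 and 22337 in sham and between 51714 and 51915 after PNX. Of 7 pan-leukocyte genes 4 rose and 1 fell, with a median of 0.16. The complement gene C1qa, of the macrophage list, had 837 and 808 normalized counts in sham and 5724 and 5877 after PNX, and Vcan, of the monocyte list, had 353 and 321 against 2240.4 and 2256. None of these genes was at the floor of 3 counts in every library. The 10 neutrophil markers summed to between 19687 and 19888 normalized counts in sham and to between 22370 and 22699 after PNX. The part of monocytes and macrophages in the rise of Il1b, S100a8 and S100a9 was not tested. Nor was it tested for the other neutrophil genes that rose, such as Chil3, Clec4d and Clec4e. For the neutrophil genes that fell, the part of other cell types was not tested.

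Scaling decided some of the calls on the markers. When counts were scaled to 12 endothelial genes, the median log2 fold change of all genes moved to 0.27, all 5 rises passed with log2 fold changes between 0.42 and 0.77, and of the falls that of Ltf passed (-0.27), with Ngp at -0.06 and Camp at -0.29. Under this scaling Mpo turned to 0.03. When counts were scaled to 7 pan-leukocyte genes, the median of all genes was -0.11, the falls of Ngp, Ltf and Camp passed, and of the rises those of Retnlg (0.39) and Il1b (0.13) passed, while S100a8, S100a9 and Csf3r had log2 fold changes of 0.04 each. Retnlg, Il1b and Ltf passed in the same direction under both scalings. Neither set of scaling genes moved as 1. With TMM their log2 fold changes ran from -0.54 to 0.11 in the endothelial set and from -0.14 to 0.305 in the pan-leukocyte set. Past both thresholds, 957 genes were higher and 269 lower with TMM, 1345 and 82 with endothelial scaling and 844 and 415 with pan-leukocyte scaling.

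**Figure D5:**
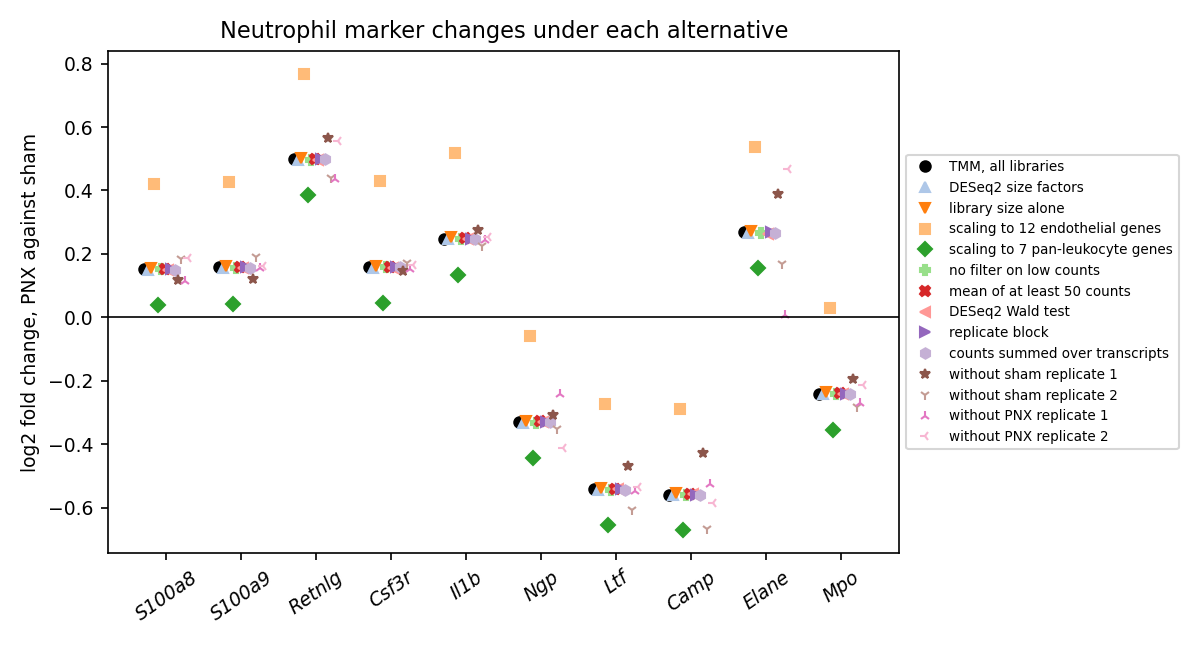
Log2 fold change of each neutrophil marker gene, PNX against sham (vertical axis), under TMM with all libraries (black) and under each alternative scaling, filter, test or left-out library. Scaling to the endothelial genes (squares) gives the highest value of every gene, and Mpo is the gene whose points lie on both sides of 0.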

How the data were processed

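ECs of 2 sham and 2 post-PNX libraries were compared. The study's methods describe strand-specific mRNA libraries, paired-end reads and alignment to mm10, for which the submitters' processing notes name STAR. Versions, the counting program and its strand setting are not given in the sources used here, so reads from antisense partners cannot be told apart. The authors deposited raw counts, FPKM and TPM per RefSeq transcript (33068). Deposited TPM values, scaled over all transcripts, served for levels between genes, and deposited FPKM values for a check of their order.

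For each symbol the transcript with the most counts was analysed in R 4.3.3 with edgeR 4.0.16 (filterByExpr, TMM, quasi-likelihood F test without covariates, Benjamini-Hochberg adjustment). Normalized counts are scaled to the mean library size, and the standard error is the log2 fold change divided by the square root of F. DESeq2 1.42.0 was an alternative. The thresholds (adjusted p under 0.01, log2 fold change beyond 1) are those of the study's methods. Steps were tested on simulated data with the same spread for every gene, which cannot show the spread between mice. Promoters and coordinates came from RefSeq (GRCm38.p6), with all 10 markers matched. In GENCODE transcripts, 9 markers shared no stretch of 50 bases with another gene, and Csf3r shared 11.2%. The markers and lists were chosen with earlier results of these data known. By rule, from each other list the genes named were drawn from that with the most counts, those with the largest rise and fall among genes past both thresholds, every such gene of a short list, and members of counts of 5 or fewer. Il1a, Il1rn, Il1r1, Cxcl2 and Tlr4 were chosen after their values were seen. Acod1 and Adgre1 were matched by their older symbols Irg1 and Emr1. Scaling to pan-leukocyte genes was added after the data were seen. Alternatives also covered filters, summed transcripts, a replicate block and each library left out. A gene of the mature neutrophil list is counted but not reported here by name.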

Additional observations from a re-analysis of the deposited data

How the results depend on the processing

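The counts of markers past both thresholds were 0 in every alternative that kept the fold threshold, and without it 5 were higher and 3 lower (13 and 7 of the other neutrophil genes). With a replicate block the counts at any size were again 5 and 3, and the fit over all genes called 957 higher and 272 lower genes against 957 and 269 without it. Sham and PNX libraries share the numbers 1 and 2, but they come from different mice and their deviations correlate by 0.03. At any size, 1 marker was lower in DESeq2's Wald test and under endothelial scaling, and 2 were higher under pan-leukocyte scaling. Leaving out each library gave between 1 and 3 lower markers, and between 0 and 1 lower among the other neutrophil genes past the fold threshold, where pan-leukocyte scaling gave 1. An adjusted p of 0.01 was lost by S100a8 (log2 fold change 0.0381 under pan-leukocyte scaling, 0.15 in DESeq2's test), S100a9 (0.043) and Csf3r (0.0446, both under pan-leukocyte scaling), Ngp (-0.0604 under endothelial scaling, -0.33 in DESeq2's test) and Camp (-0.29 and -0.56). With each library left out, S100a8 ranged from 0.11 to 0.19, Ngp from -0.41 to -0.24 and Camp from -0.67 to -0.43. Mpo was reversed under endothelial scaling (0.0287, edgeR, adjusted p = 0.875). The cause of these moves was not tested. Under the filter of a mean of 50 counts Elane was not tested. The 20 ratios between libraries stayed within their intervals with library size alone, and the order per length was the same in FPKM for all 10 markers. Depth limits Elane, Camp and Mpo most.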

Other observations

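Markers of further blood cells differed in direction from one lineage to the next. Eosinophil genes (4 tested) all rose, with a median log2 fold change of 1.03. Ccr3, the eotaxin receptor, had 54.4 and 55.0 normalized counts in sham and 198 and 195 after PNX, and Ear6 had a log2 fold change of 1.13. In the platelet list 4 of 6 genes rose and Pf4, a chemokine of platelet granules, was past the fold threshold (log2 fold change 1.34). Of 5 genes of basophils and mast cells 2 rose and 1 fell, among them the mast cell protease Mcpt4 with a log2 fold change of 2.21, and Ms4a2, a chain of the IgE receptor, was the gene that fell. Erythroid genes (4 tested) rose in 2 cases, with a median of 0.40.

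All 5 B cell genes and all 6 T cell genes fell, with medians of -0.84 and -0.82, and Cd4 (log2 fold change -1.01) and Cd8a (-1.08) were past the fold threshold. Of the 12 endothelial genes 10 fell and 1, Emcn, rose, with a median of -0.25.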
